A study of Mus musculus with 6 samples.

Results

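Peroxisomes are small organelles bounded by a single membrane that shorten very long and branched fatty acids, finish bile acid side chains, and destroy the hydrogen peroxide that their oxidases make. Peroxins, encoded by the Pex genes, build them: they insert membrane proteins, import folded enzymes from the cytosol, and divide the organelle. In the kidney, peroxisomes are most abundant in the proximal tubule, the segment that recovers most of the filtered solutes and burns fatty acids to do so. The genes described here are 35 named peroxisomal genes found by symbol in a table of 23873 gene rows. They comprise 13 biogenesis factors and 22 enzymes and membrane carriers. Each symbol matched 1 row, and 19503 rows of the table held values.

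RNA came from kidneys of mice 8 weeks old, in 2 groups of 3 libraries. The first group is labelled wild type. The second, here NICD2_Pax8, carries R26NICD2 in 1 copy with pax8cre, that is, a Rosa26 allele for the intracellular domain of the receptor Notch2 and a Cre driver of the renal tubule epithelium. The series title instead names a Pax-rtTA driver, and wild-type titles also start with NICD, so neither the driver nor the presence of the allele in the controls is settled by the sources used here. The series title poses the question of cyst growth under Notch2 activation. Each title carries a number of its own, but the labels do not say whether it marks an animal, and the p-values speak only of spread among these 6 libraries, part of which may be technical.

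Values are FPKM, fragments scaled to transcript length and library depth, as the authors gave them. Depth, estimated from how low FPKM values are spaced, was 14600000 to 15000000 fragments in wild type and 15900000 to 17800000 in NICD2_Pax8. Cat then rested on about 4130 to 22488 fragments per library and Hacl1 on about 171 to 623. Wild-type replicate 1 stood apart: 8 adrenal markers summed to 3707 FPKM there and to 1.46 to 1.77 FPKM in the other 5 libraries, and 7 fat markers summed to 4409 FPKM against 63.1 to 898.5 FPKM. Kidney identity was clear in wild type from 16 proximal tubule markers, which summed to 60959 to 92682 FPKM there and to 394 to 5087 FPKM in NICD2_Pax8. Kap alone made up most of the wild-type sum, at 55466, 79735 and 84655 FPKM, and stood at 59.9, 4192 and 730 FPKM in NICD2_Pax8. By the test given below 15 of the 16 fell, where 16.2% of all tested genes did.

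The enzymes and carriers were lower in NICD2_Pax8 kidneys to a far greater extent than the biogenesis factors. With limma on log2(FPKM + 1) and a Benjamini-Hochberg adjusted p under 0.05, 16 of the 21 enzymes and carriers tested fell and 0 rose (5 of 21 did not pass), with a median log2 fold change of -1.20. Of the 13 biogenesis factors 7 fell and 1 rose, with a median of -0.38. Over all 13500 genes tested, 16.2% fell and 45.1% rose, with a median of 0.32. Abcd2 was below 1 FPKM in more than 3 libraries and was not tested. All 3 NICD2_Pax8 libraries lay below all 3 wild-type libraries for 16 of 22 enzymes and carriers and 8 of 13 biogenesis factors, against 18.8% of tested genes, and the opposite held for 0 and 1, against 49.9%. Because these are bulk samples, fewer cells of a type and less RNA per cell cannot be told apart.

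The count for the biogenesis factors rested on the scaling. After median-of-ratios scaling, which moved the median log2 fold change of all genes to 0.02, 12 of 13 biogenesis factors and 18 of 21 enzymes and carriers fell and 0 rose in either group, where 25.7% of all genes fell and 28.7% rose. The medians were then -0.72 and -1.55, and all 16 enzymes and carriers that fell in unscaled FPKM passed again. In the authors' deposited table, 11 of 13 biogenesis factors and 19 of 22 enzymes and carriers were lower at a q-value under 0.05 and 0 were higher, where 21.5% of 19439 genes were lower and 21.3% higher.

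A comparison within a library does not depend on such scaling. The summed FPKM of the 22 enzymes and carriers was 8.64, 10.3 and 11.1 times that of the 13 biogenesis factors in wild-type replicates 1 to 3. In NICD2_Pax8 replicates 1 to 3 the ratio was 4.23, 5.1 and 5.04, so the groups did not overlap. Cat, Phyh and Scp2 had the highest wild-type means in this sum. The biogenesis factors summed to 290.3 to 300 FPKM in wild type and 197 to 238 FPKM in NICD2_Pax8, the enzymes and carriers to 2591 to 3228 FPKM and 835 to 1199 FPKM.

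**Figure D1:**
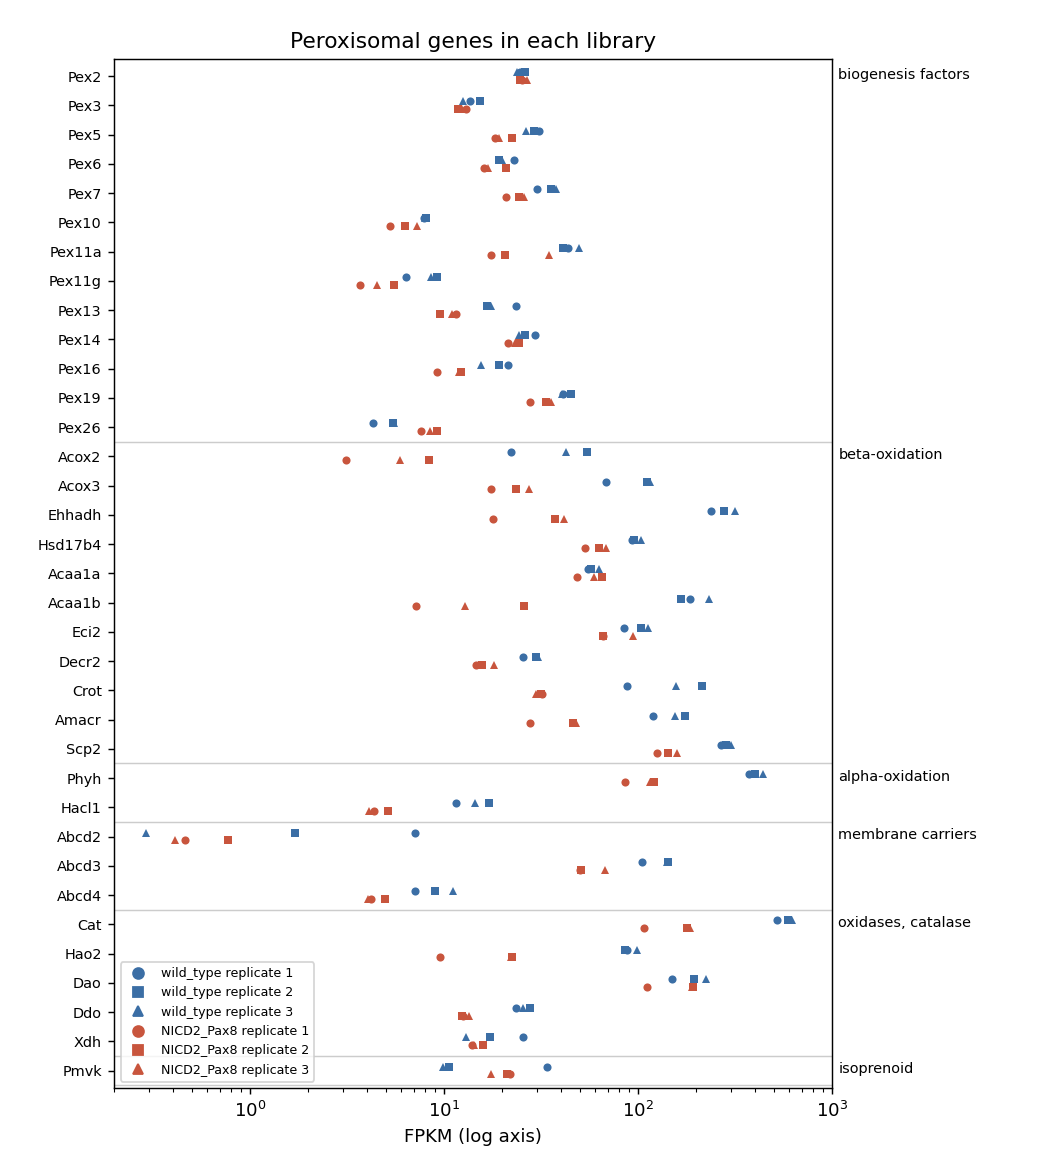
FPKM on a log axis for each of the 35 genes, with 1 point per library (blue wild type, red NICD2_Pax8; circle, square and triangle for replicates 1, 2 and 3) and genes ordered by role. Points of the biogenesis factors lie close together or slightly apart, while Acaa1b, Ehhadh, Acox2 and Hao2 leave a wide gap between the colours and Abcd2 spreads most within wild type.

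The start of the pathway is the membrane. Abcd3, a half-transporter that brings branched and dicarboxylic acyl chains into the organelle, stood at 105, 143 and 142 FPKM in wild-type replicates 1 to 3 and at 50.3, 50.6 and 67.6 FPKM in NICD2_Pax8 replicates 1 to 3. It fell 2.32-fold in mean FPKM (log2 fold change -1.20, SE 0.17, adjusted p = 0.00119). Abcd4, a relative that acts in lysosomal cobalamin transport although it was first placed in peroxisomes, fell 2.06-fold, from 7.11, 8.95 and 11.1 FPKM to 4.18, 4.98 and 4.04 FPKM (adjusted p = 0.00398). The levels of both carriers did not overlap between the groups, and Abcd3 was 10.2 to 16.7 times as abundant as Abcd4 in every library.

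Abcd2, the carrier of very long polyunsaturated chains that is known from fat and brain, followed another order. Its wild-type values were 7.08, 1.7 and 0.29 FPKM, and its NICD2_Pax8 values 0.46, 0.77 and 0.41 FPKM, or about 24 to 583 fragments. The 7 fat markers, in the same order, summed to 4409, 898.5 and 151.9 FPKM and to 63.1, 414.7 and 123 FPKM, with Lep and Ucp1 at 0 in NICD2_Pax8 replicates 1 and 3. The wild-type to NICD2_Pax8 ratio of Abcd2 went from 5.53 to 1.82 without wild-type replicate 1, and the part of the fat transcripts in it was not tested.

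Acyl-CoA oxidases take the first step of peroxisomal beta-oxidation and make hydrogen peroxide. Acox2, the oxidase of bile acid intermediates and branched chains, fell 6.82-fold, from 22.25, 54.4 and 42.4 FPKM to 3.14, 8.38 and 5.92 FPKM (log2 fold change -2.57, SE 0.40, adjusted p = 0.00162). Acox3, which also acts on branched chains, went from 68.6, 111 and 115 FPKM to 17.4, 23.6 and 27.3 FPKM, a 4.31-fold fall (adjusted p = 5.47e-04). For both genes the highest NICD2_Pax8 library was below the lowest wild-type library, which was replicate 1.

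The next steps, hydration and dehydrogenation, are shared by a pair of multifunctional enzymes, and these moved by different amounts. Ehhadh (chr16:21761285-21787834), the L-bifunctional enzyme and a classic target of the fatty acid receptor PPARalpha, fell 8.55-fold. Its values were 238, 278 and 315 FPKM in wild type and 17.9, 37.6 and 41.8 FPKM in NICD2_Pax8 (log2 fold change -3.13, SE 0.31, adjusted p = 2.74e-04). Hsd17b4, the D-bifunctional enzyme that handles branched chains and bile acid precursors, fell 1.57-fold, from 92.9, 94.9 and 103 FPKM to 53.4, 63.2 and 68.3 FPKM (adjusted p = 0.00306). The ratio of Ehhadh to Hsd17b4 was thus 2.57 to 3.04 in wild-type libraries and 0.335 to 0.611 in NICD2_Pax8 libraries, and the order of the pair turned over.

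Thiolases close the cycle, and here the 2 neighbouring copies on chromosome 9 parted. Acaa1b (chr9:119148043-119157093), the copy abundant in mouse liver and kidney, had the lowest log2 fold change of the 34 tested genes. It stood at 184, 166 and 233 FPKM in wild type and 7.21, 25.8 and 12.9 FPKM in NICD2_Pax8, a 12.7-fold fall (log2 fold change -3.74, SE 0.40, adjusted p = 3.86e-04), or 19.3-fold without NICD2_Pax8 replicate 2. Acaa1a (chr9:119339773-119350296) stood at 55.2, 57 and 63.2 FPKM against 48.7, 65.4 and 59.6 FPKM, with overlapping groups (log2 fold change -0.02, SE 0.13, adjusted p = 0.894). The Acaa1b to Acaa1a ratio was 2.91 to 3.68 in wild type and 0.148 to 0.394 in NICD2_Pax8. The direction of Acaa1a, which did not pass in any setting, was not stable to leaving out single libraries.

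How well fragments separate these copies bears on that contrast. Their coding sequences in the GENCODE annotation of GRCm38 have the same length of 1272 bases and differ at 44 of them (96.5% identical), and the longest stretch without a difference spans coding bases 748 to 1074. Of all 50-base words of the Acaa1b transcript, 35.5% also occur in Acaa1a, and fragments from such stretches could be counted to either copy. Counting every other gene, 46.2% of the Acaa1b words are shared. Of the Acaa1a words, 34.0% occur in Acaa1b. On the opposite strand, Dlec1 covers 11.4% of the exonic bases of Acaa1b and Myd88 6.57% of those of Acaa1a. The 90-base window within 1 exon that differs most, coding bases 447 to 536 in coding exon 6, is shown for both because fragments from there can be told apart (chr9:119346470-119346559 on the plus strand for Acaa1a and chr9:119151825-119151914 on the minus strand for Acaa1b). Capitals mark the 12 bases that differ.
Acaa1a: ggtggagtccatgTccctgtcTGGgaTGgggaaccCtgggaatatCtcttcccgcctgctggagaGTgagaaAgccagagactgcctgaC
Acaa1b: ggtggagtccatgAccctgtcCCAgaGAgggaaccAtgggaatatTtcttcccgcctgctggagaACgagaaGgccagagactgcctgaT

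Scp2 encodes the sterol carrier protein and, from a second start site, the thiolase of branched chains. It fell 2.01-fold, from 268, 286 and 303 FPKM to 125, 143 and 158 FPKM (log2 fold change -1.01, SE 0.12, adjusted p = 5.38e-04), with no overlap. Of its 50-base words 41.4% occur in the processed copy Scp2-ps2, so part of its signal cannot be placed with certainty.

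Accessory enzymes of beta-oxidation fell with 1 exception. Amacr, the racemase that turns branched acyl-CoA into the form the oxidases accept, went from 119.7, 174 and 155 FPKM to 27.9, 46.1 and 48 FPKM, a 3.68-fold fall (adjusted p = 7.10e-04). Crot, which hands shortened chains to carnitine for export to mitochondria, stood at 87.4, 213 and 156 FPKM in wild type and within 29.8 to 31.9 FPKM in all 3 NICD2_Pax8 libraries, a 4.89-fold fall (adjusted p = 9.95e-04). Decr2, a reductase for unsaturated chains, fell 1.77-fold (25.6, 29.8 and 30.5 against 14.6, 15.7 and 18.1 FPKM, adjusted p = 0.00150). The exception was Eci2, an isomerase for unsaturated chains that is also found in mitochondria: at 85, 104 and 113 FPKM against 65.7, 66 and 94.3 FPKM its groups overlapped and it did not pass (adjusted p = 0.0786). Eci2 passed after median-of-ratios scaling (log2 fold change -0.77, adjusted p = 0.0221) and without wild-type replicate 1 (adjusted p = 0.0398) or NICD2_Pax8 replicate 3 (adjusted p = 0.0238).

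Alpha-oxidation removes 1 carbon from phytanic acid, whose branch blocks the beta-oxidation oxidases. Phyh, the hydroxylase that starts it and is mutated in Refsum disease, was the second most abundant of the 35 genes in the wild-type kidney. It stood at 374, 399 and 441 FPKM in wild type and 85.3, 121 and 115 FPKM in NICD2_Pax8, a 3.78-fold fall with the smallest adjusted p of the 34 tested genes (log2 fold change -1.92, SE 0.16, adjusted p = 1.35e-04). Hacl1, the lyase that follows, fell 3.17-fold, from 11.5, 17.2 and 14.5 FPKM to 4.35, 5.14 and 4.12 FPKM (adjusted p = 4.25e-04). Neither gene overlapped between the groups, although 55.6% of the 50-base words of Hacl1 are shared with the annotated gene Gm49387, which overlaps it on the same strand.

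Oxidases of the matrix split. Hao2, the hydroxy acid oxidase of kidney, fell 5.01-fold, from 87.3, 85.3 and 98.2 FPKM to 9.5, 22.3 and 22.25 FPKM (log2 fold change -2.35, SE 0.31, adjusted p = 8.14e-04). Ddo, which oxidizes D-aspartate, fell 2-fold, from 23.55, 27.6 and 25.5 FPKM to a narrow 12.4 to 13.4 FPKM (adjusted p = 3.45e-04). Dao, the oxidase of neutral D-amino acids, stayed abundant at 149.8, 195 and 224 FPKM against 112, 191 and 190.7 FPKM and did not pass (log2 fold change -0.23, SE 0.25, adjusted p = 0.461). It passed as lower in 1 alternative, median-of-ratios scaling with wild-type replicate 1 left out (log2 fold change -0.80, adjusted p = 0.0497).

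Xdh, xanthine dehydrogenase, a mainly cytosolic enzyme of purine breakdown that is also expressed in endothelium, stood at 25.6, 17.3 and 13 FPKM against 14, 15.8 and 14.3 FPKM. It did not pass in unscaled FPKM (adjusted p = 0.331) and passed after median-of-ratios scaling (log2 fold change -0.60, adjusted p = 0.0315). Its highest value was in wild-type replicate 1, and without that library its unscaled log2 fold change was -0.03. With median-of-ratios scaling and that library left out, Xdh still passed as lower. The 5 endothelial markers summed to 105 to 133 FPKM in wild type and 47.7 to 62.8 FPKM in NICD2_Pax8, and their part in these values was not tested.

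Catalase, the enzyme that disposes of the peroxide, was the most abundant of the 35 genes in wild type. Cat (chr2:103453904-103485153) stood at 518, 592 and 619 FPKM there and at 108, 179 and 186 FPKM in NICD2_Pax8, a 3.66-fold fall (log2 fold change -1.90, SE 0.22, adjusted p = 5.04e-04). The lowest library of each group was replicate 1, and the groups were far apart.

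Many peroxisomal genes are targets of nuclear receptors such as PPARalpha, which bind a direct repeat with a spacer of 1 base. The RefSeq promoter windows of GRCm38 (250 bases before to 50 after a start site) covered 28 of the 35 genes with 36 windows. The repeat, AGGTCA followed after any 1 base by AGGTCA, searched on both strands with up to 2 mismatches, occurred in 2 windows, those of Cat and of 1 start site of Acox2, or 7.14% of the genes against 4.4% of 27025 genes with such windows. No member window held it with fewer mismatches. A count of 2 genes lies near the share of all genes and is not read as an enrichment. Sites outside these windows were not searched, and receptor binding was not measured. In Acox2 the match, AGGACAGAGGTGA, begins at base 10 of the transcript. For Cat the match begins 204 bases before the start site. The 250 bases before that site (chr2:103485154-103485403, minus strand) are shown with the match in capitals, since Cat is the most abundant member.
Cat: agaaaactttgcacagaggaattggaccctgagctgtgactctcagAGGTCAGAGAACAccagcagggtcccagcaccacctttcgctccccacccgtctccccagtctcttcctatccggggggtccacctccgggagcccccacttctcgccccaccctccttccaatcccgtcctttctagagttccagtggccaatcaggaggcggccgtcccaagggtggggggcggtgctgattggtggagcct

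Pmvk, a kinase of the mevalonate route to cholesterol that has been placed in both peroxisomes and cytosol, did not pass over all 6 libraries. It stood at 34.1, 10.6 and 9.93 FPKM in wild type and 21.8, 21.2 and 17.5 FPKM in NICD2_Pax8, so that the spread within wild type exceeded the difference between groups (log2 fold change 0.36, adjusted p = 0.502). In the authors' deposited table its log2 fold change was -0.14 with a q-value of 0.838. Wild-type replicate 1 was the high library, the one with the adrenal transcripts. Without it Pmvk was higher in NICD2_Pax8 by log2 0.90 (adjusted p = 0.00141), and by log2 0.52 after median-of-ratios scaling without it (adjusted p = 0.0107). The part of adrenal RNA in the value of replicate 1 was not tested.

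**Figure D2:**
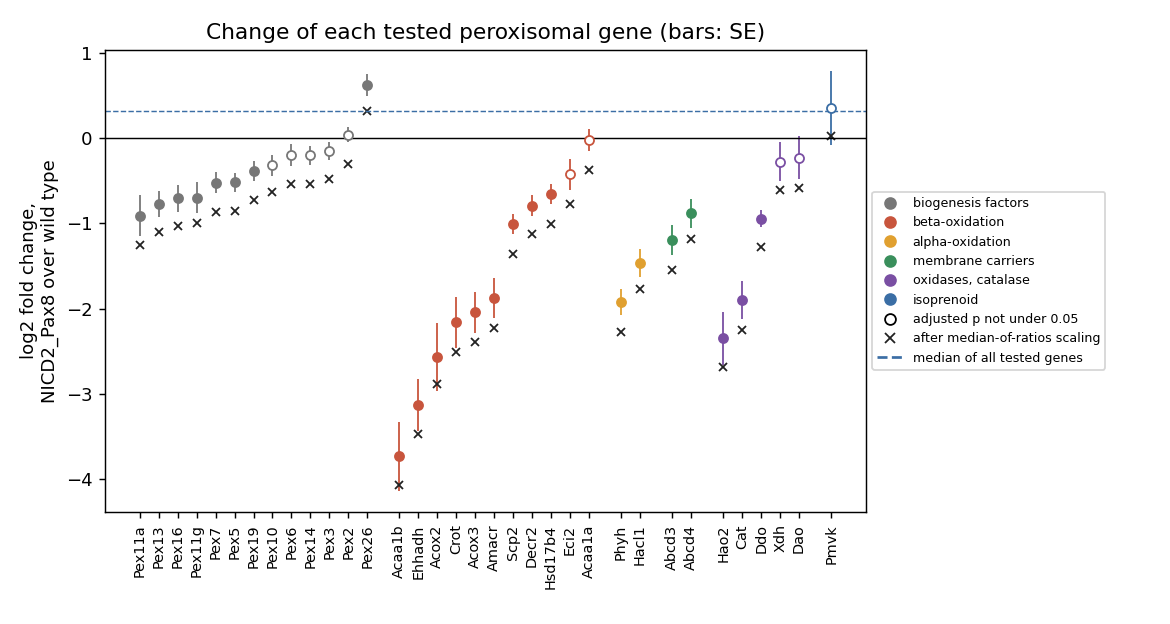
Log2 fold change of NICD2_Pax8 over wild type on log2(FPKM + 1) for the 34 tested genes, grouped and coloured by role, with the limma SE as bars. Filled circles passed an adjusted p of 0.05, crosses show the value after median-of-ratios scaling, and the dashed line is the median of all tested genes at 0.32. The biogenesis factors lie between -0.91 and 0.63, and beta-oxidation reaches -3.74.

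Among the biogenesis factors, Pex11a, Pex13, Pex11g and Pex16 had the lowest log2 fold changes. Pex11a, which elongates and divides peroxisomes and is induced by PPARalpha, stood at 43.7, 40.9 and 49.9 FPKM in wild type and 17.5, 20.7 and 34.6 FPKM in NICD2_Pax8. It fell 1.85-fold (log2 fold change -0.91, SE 0.24, adjusted p = 0.0151), and leaving out wild-type replicate 3 or NICD2_Pax8 replicate 2 ended the call (adjusted p = 0.0505 and 0.0521). Pex11g, its relative, fell 1.76-fold, from 6.35, 9.2 and 8.58 FPKM to 3.68, 5.51 and 4.53 FPKM (adjusted p = 0.0137; 0.0510 without wild-type replicate 2). An antisense gene, Gm44775, covers 41.1% of the exonic bases of Pex11g, and without strand its reads cannot be told apart.

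Import runs through receptors, a docking complex and a recycling complex. Pex5, the receptor for the common carboxy-terminal import signal, fell 1.45-fold, from 30.9, 29.2 and 26.6 FPKM to 18.3, 22.4 and 19.1 FPKM (adjusted p = 0.00690). Pex7, the receptor for the rarer amino-terminal signal that Phyh and the thiolases Acaa1a and Acaa1b carry, fell by almost the same factor, 1.45-fold. It went from 30, 35.5 and 37.8 FPKM to 20.9, 24.4 and 25.8 FPKM (adjusted p = 0.0112). Both receptors were separated between the groups.

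The docking partners differed in their calls. Pex13 fell 1.79-fold (23.4, 16.7 and 17.5 against 11.5, 9.59 and 11 FPKM, adjusted p = 0.00415), the smallest adjusted p of the 13 biogenesis factors. Pex14, with which it forms the docking complex, stood at 29.4, 26.2 and 24.3 against 21.3, 24.5 and 23.3 FPKM and did not pass (log2 fold change -0.20, adjusted p = 0.155). After median-of-ratios scaling Pex14 passed (log2 fold change -0.54, adjusted p = 0.00365). The antisense gene Gm17029 covers 28.3% of the exonic bases of Pex14.

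The other factors of receptor recycling did not pass in unscaled FPKM. The ring finger proteins Pex2 and Pex10 add ubiquitin to the receptor: Pex2 stood at 24.5, 26.1 and 23.7 against 25.3, 24.7 and 26.7 FPKM (adjusted p = 0.690) and Pex10 at 7.86, 8.11 and 7.98 against 5.24, 6.28 and 7.23 FPKM (adjusted p = 0.0673). Pex10 was lower in all NICD2_Pax8 libraries without passing, and passed without NICD2_Pax8 replicate 3 (adjusted p = 0.0479). Pex6, an ATPase that pulls the receptor out, stood at 23, 19.1 and 19.9 against 16.1, 20.8 and 16.9 FPKM (adjusted p = 0.222). After median-of-ratios scaling all 3 passed as lower, with log2 fold changes of -0.30, -0.63 and -0.53 for Pex2, Pex10 and Pex6, so that the direction of Pex2 turned.

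Pex26, the membrane anchor of that ATPase, was the only biogenesis factor that rose in unscaled FPKM. Its values were 4.32, 5.44 and 5.55 FPKM in wild type and 7.59, 9.21 and 8.47 FPKM in NICD2_Pax8, 1.65-fold higher with no overlap (log2 fold change 0.63, SE 0.13, adjusted p = 0.00560). After median-of-ratios scaling its log2 fold change was 0.32 and it did not pass (adjusted p = 0.13), and in the authors' deposited table its log2 fold change was 0.38 with a q-value of 0.135.

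Membrane assembly rests on Pex3, Pex16 and Pex19. Pex19, the chaperone of membrane proteins, fell 1.31-fold, from 41.2, 45.3 and 40.4 FPKM to 27.7, 33.8 and 35.7 FPKM (adjusted p = 0.0296), and leaving out any of 4 libraries, wild-type replicate 2 or 3 or NICD2_Pax8 replicate 1 or 2, ended the call (adjusted p from 0.0559 to 0.103). Pex16 fell 1.69-fold, from 21.4, 19.3 and 15.6 FPKM to 9.19, 12.2 and 12 FPKM (adjusted p = 0.00789). Pex3, the docking site of Pex19, stood at 13.7, 15.3 and 12.6 against 13, 11.8 and 12.3 FPKM, with overlap and no call (adjusted p = 0.258), and passed after median-of-ratios scaling (log2 fold change -0.48, adjusted p = 0.00869).

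Genes with high wild-type levels tended to have the lower fold changes. Across the 34 tested genes the Spearman correlation of wild-type mean FPKM with log2 fold change was -0.57, and it was -0.43 over the 21 enzymes and carriers, -0.35 over the 13 biogenesis factors and -0.32 over all 13500 genes. These are correlations across genes, which are not independent replicates, and the wild-type libraries enter both axes. Dao and Acaa1a were abundant genes that did not follow the tendency.

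**Figure D3:**
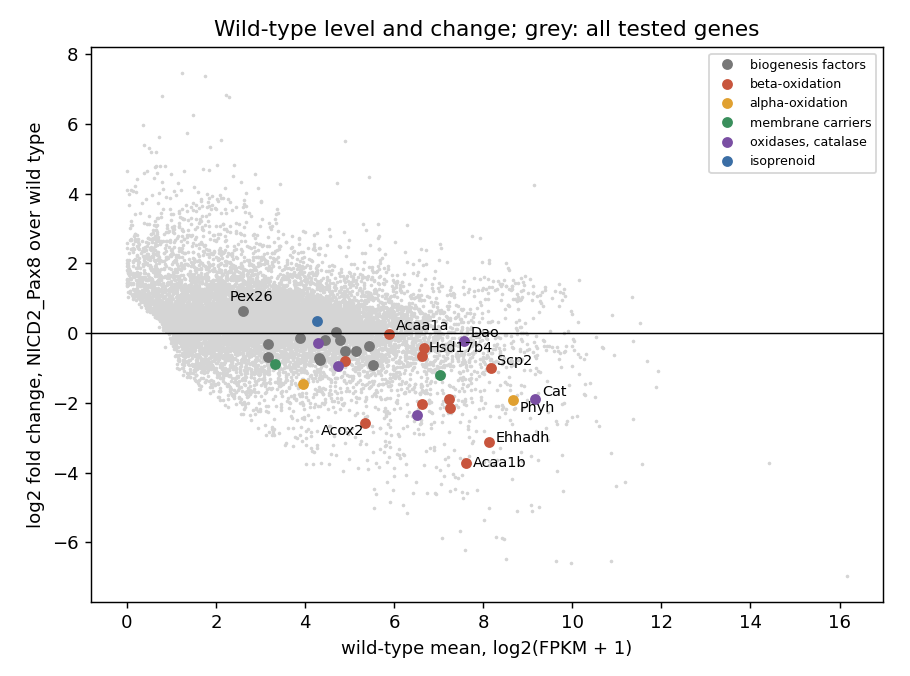
Wild-type mean as log2(FPKM + 1) against log2 fold change of NICD2_Pax8 over wild type, with 1 point per gene, the 34 tested peroxisomal genes in colour by role and all 13500 tested genes in grey. Ehhadh, Acaa1b, Cat and Phyh lie at the lower right, whereas Dao and Acaa1a lie near 0 at similar or lower levels.

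Libraries within a group also differed. NICD2_Pax8 replicate 1 was the lowest of its group for 16 of 22 enzymes and carriers, 10 of 13 biogenesis factors and 14 of 16 proximal tubule markers. In wild type, replicate 1 was the lowest for 17 of 22 enzymes and carriers and 13 of 16 markers, but for 4 of 13 biogenesis factors. The proximal tubule markers summed to 394, 5087 and 1384 FPKM in NICD2_Pax8 replicates 1 to 3, and the enzymes and carriers to 835, 1150 and 1199 FPKM, so the order of replicates 2 and 3 differed. Kap alone gave 59.9, 4192 and 730 FPKM of these marker sums. The median over markers of the log2 ratio to the wild-type mean was -5.93, -3.36 and -4.26 in these libraries, against -1.41, -1.26 and -1.25 for the enzymes and carriers and -0.59, -0.32 and -0.28 for the biogenesis factors. Some markers of other cells differed between the groups too. Of 5 macrophage markers, 3 rose (Cd68, C1qa and Lyz2) and 0 fell, where 45.1% of all tested genes rose. Adgre1 and Csf1r did not pass (adjusted p = 0.389 and 0.751). The sum of the macrophage markers, in which Lyz2 and C1qa were the most abundant, was 70 to 214 FPKM in wild type and 312 to 388 FPKM in NICD2_Pax8. Of 5 thick limb markers 4 fell, where 16.2% of all tested genes did, among them the salt transporter gene Slc12a1 by 11.2-fold. The sum of the thick limb markers, in which Umod was the most abundant, overlapped at 826 to 1836 against 1023 to 1682 FPKM. The part of these transcripts and of the lower proximal tubule transcripts in the enzyme levels was not tested.

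**Figure D4:**
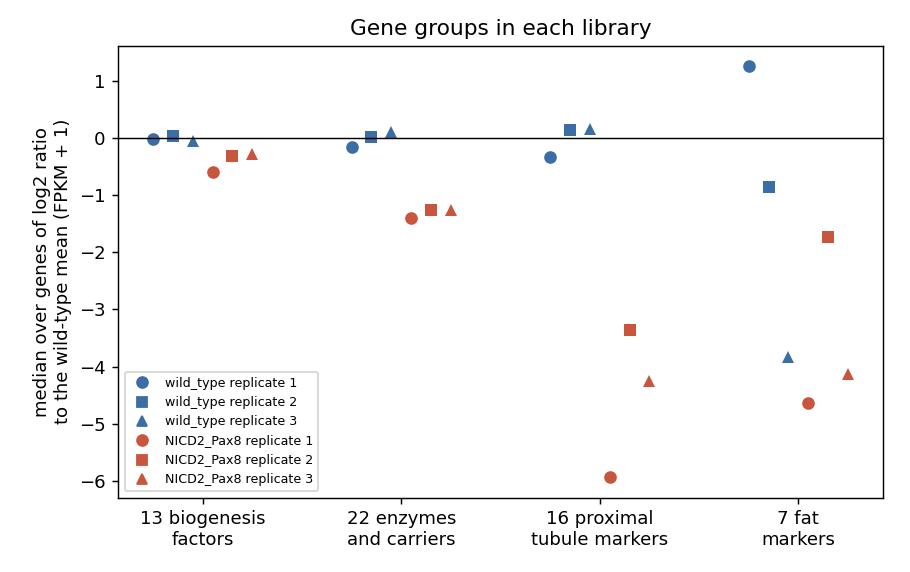
Median over the genes of a group of the log2 ratio of FPKM + 1 to the wild-type mean, with 1 point per library. Proximal tubule markers lie lowest in NICD2_Pax8 (-5.93 to -3.36), enzymes and carriers between -1.41 and -1.25, and biogenesis factors between -0.59 and -0.28. Fat markers are spread across the libraries, at 1.25, -0.86 and -3.83 in wild-type replicates 1 to 3 and at -4.64, -1.74 and -4.13 in NICD2_Pax8 replicates 1 to 3.

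Peroxisomal genes outside the 35 were counted in the same way. Of 39 further enzymes and carriers 34 were tested, of which 26 fell and 1 rose (median log2 fold change -0.90). Of 12 further biogenesis, membrane and fission genes 11 were tested, of which 5 fell and 0 rose (median -0.19), where 16.2% of all genes fell and 45.1% rose. After median-of-ratios scaling 36 of these 45 genes fell and 0 rose, where 25.7% of all genes fell and 28.7% rose.

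The enzymes with the smallest p among those lower were Acot3, an acyl-CoA thioesterase with close relatives, at 8.58 ± 0.783 against 0.27 ± 0.226 FPKM, Acad11, an acyl-CoA dehydrogenase, and Prdx5, a peroxiredoxin shared with mitochondria (SD, n = 3 each). Acad11 fell to 29.6% and Prdx5 to 24.8% of the wild-type mean. Paox, the polyamine oxidase, rose 1.48-fold in unscaled FPKM (adjusted p = 0.00849). Its log2 fold change was 0.50, where the median of all tested genes was 0.32. In the authors' deposited table the log2 fold change of Paox was 0.30 with a q-value of 0.203. Next in that direction, Mvk, the kinase that precedes Pmvk, stood at 8.86, 6.09 and 6.01 against 10.95, 13.8 and 7.64 FPKM and Slc25a17, the peroxisomal cofactor carrier, at 56.6, 72.6 and 64.7 against 62, 68 and 78.6 FPKM, and neither passed (adjusted p = 0.0784 and 0.532).

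Among the further membrane and fission genes, Mpv17l fell furthest, from 85.3, 274 and 185 FPKM to 4, 16.1 and 9.78 FPKM (log2 fold change -4.07, SE 0.56, adjusted p = 9.35e-04). Pxmp2, a membrane channel, and Acbd5, which tethers peroxisomes to the endoplasmic reticulum, fell to 44.2% and 53.8% of the wild-type mean (adjusted p = 0.00209 and 0.00365). The fission adaptor Mff stood at 50.3, 50.5 and 47.6 against 59.5, 58 and 54.6 FPKM and Fis1, which acts in fission too, at 114, 124 and 138 against 111, 148 and 138 FPKM. Neither passed (adjusted p = 0.0721 and 0.673), although Mff was higher in all NICD2_Pax8 libraries.

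Regulators of peroxisomal genes were measured beside them, and 5 of 8 fell and 0 rose, where 16.2% of all genes fell and 45.1% rose. Only 3 of the 8 fell when wild-type replicate 2 or 3 or NICD2_Pax8 replicate 2 was left out, and after median-of-ratios scaling 6 fell, where 25.7% of all genes did. Ppara, the fatty acid receptor itself, stood at 19.6, 27.1 and 29.8 FPKM in wild type and 8.65, 11.5 and 18.9 FPKM in NICD2_Pax8, and fell to 51.0% of the wild-type mean (adjusted p = 0.0226). Its partner Rxra fell to 69.2%, the coactivators Ppargc1a and Ppargc1b to 77.1% and 55.2%, and the receptor Esrra to 65.9% (adjusted p = 0.0171, 0.0194, 0.00711 and 0.00438). Hnf4a, a master factor of the proximal tubule, did not pass at 153, 192 and 209 against 69, 131 and 169 FPKM (adjusted p = 0.113), whereas its deposited log2 fold change was -0.92 with a q-value of 0.0173. Pparg and Ppard did not pass either (adjusted p = 0.284 and 0.504), and wild-type replicate 1 held the highest value of each: Pparg stood at 16 FPKM there and 1.35 to 6.03 FPKM elsewhere, Ppard at 56.2 FPKM and 13 to 19.7 FPKM.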

How the data were processed

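Kidney RNA of 6 libraries was analysed, 3 per group by the labels. The deposited table gave FPKM per library, named so per the file headers, with 0 further library columns. The authors also deposited log2 fold changes with p-values and q-values, from DESeq2 per the file headers, which served only where named, and values for single pairs of libraries, not used here. Bowtie 0.12.2 and mm8 appear in the submitters' processing notes. Positions in the table equal those of GRCm38 RefSeq for 88.2% of 22002 matched genes and 29 of the 35 genes here, so they are read as GRCm38. For the counting tool, its strand setting and the annotation version: not given in the sources used here.

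Of 23873 rows, 4370 had no values. The 13500 genes reaching 1 FPKM in 3 or more libraries were tested on log2(FPKM + 1) with limma 3.58.1 (mean-variance trend, R 4.3.3), two-sided, genotype being the sole term, and adjusted by Benjamini-Hochberg over all of them. Log2 fold changes and their SE are on that scale, which understates changes of low genes. Folds are ratios of group mean FPKM. The procedure was tested on simulated data. Depth was estimated from genes of 1 transcript as the step that makes low values whole multiples; a multiple of the step also made some libraries whole, so the range searched was limited to 5000000 to 25000000 fragments after that was seen, and 71.7% to 78.3% of low values lay within 0.15 of a whole number.

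Shared 50-base words and exon overlaps were read from GENCODE M21 and, like the within-library ratios and the relation of level to change, were chosen after values were seen, and promoters from RefSeq tables of GRCm38.p6. Alternatives were other pseudocounts, filters, scalings and thresholds, the replicate block, and each library left out. The members and gene lists were chosen with earlier results of these data known. All 35 members are named, with all 8 regulators and, of the other peroxisomal lists, the 3 genes with the smallest p per direction, of which 1 is not reported here. Protein targeting signals were planned and are not analysed here.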

Additional observations from a re-analysis of the deposited data

How the results depend on the processing

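The count of enzymes and carriers that fell, 16, lay between 12 (calls also limited to a log2 fold change of 1 or more in size) and 19 (median-of-ratios scaling with wild-type replicate 1 left out) in all alternatives. The biogenesis factors that fell, 7, became 12 with median-of-ratios scaling, upper quartile scaling, quantile normalization, or median-of-ratios with wild-type replicate 1 left out, 3 at an adjusted p under 0.01, and 0 with the log2 limit; leaving out single libraries gave 5 to 8. The 1 that rose became 0 under the 3 scalings, the scaled values with wild-type replicate 1 left out, the filter of 10 FPKM and the log2 limit. Enzymes and carriers that rose, 0, became 1, which was Pmvk, without wild-type replicate 1, scaled or not, and leaving out single libraries gave 0 to 1. Of the other peroxisomal genes, the 31 that fell became 18 with the log2 limit, and the 1 that rose became 3 without a filter, 0 under the 3 scalings, under the log2 limit and in scaled values with wild-type replicate 1 left out, and 1 to 2 when single libraries were left out. The direction of Pex2 turned, with log2 fold changes of -0.30, -0.27, -0.24 and -0.36 under median-of-ratios, upper quartile, quantile and, with wild-type replicate 1 left out, again median-of-ratios scaling. Acaa1a was at 0.03 without wild-type replicate 3 and at 0.10 without NICD2_Pax8 replicate 1, and Dao at 0.029 without the latter; leaving out single libraries gave -0.11 to 0.10 for Acaa1a and -0.39 to 0.029 for Dao. The causes were not tested, save that the stricter thresholds call fewer genes by construction and that the filter of 10 FPKM leaves Pex26 out. With the replicate block 7 biogenesis factors and 17 enzymes and carriers fell, Eci2 being the added call (adjusted p = 0.0292). Whether the replicate numbers pair the samples is not stated by the labels, though the authors' single-pair values join same-numbered libraries. The deviations of same-numbered libraries correlated at 0.0951, -0.0498 and 0.00560, and those of differently numbered libraries at -0.123 to 0.20. With 3 libraries per group such values cannot settle pairing. By the estimated depth Abcd2 rested on the fewest fragments, about 24 to 583 per library, and each of the other 34 genes on about 124 or more.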
